A study of Mus musculus with 12 samples.

Results

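Chemokines and their receptors were described across the lungs of newborn mice that had breathed hyperoxia or room air after an injection of aurothioglucose or saline. In hyperoxia the transcript of Cxcl16, a membrane-anchored ligand, was 2.10-fold higher after aurothioglucose and 1.83-fold higher after saline, and that of Cxcl12, a ligand that attracts progenitor cells and leukocytes, was lower after each injection. Genes were taken by symbol: those beginning with Ccl, Cxcl, Ccr or Cxcr and a digit, with Cx3cl1, Cx3cr1, Xcl1 and Xcr1, where the count summed over all libraries reached 100. Of 56 such symbols in the table, 36 met the minimum, 23 of them ligands and 13 receptors, out of 23478 genes in all. The lowest counts that met it were those of Xcr1 (131) and Ccl7 (136), and the highest that did not were those of Ccl20 (98) and Cxcl9 (91). Among the 20 left out, Cxcl2 had 78 counts in total, Xcl1 37 and Ccl4 29, and 5 had no count in any library. Ccl21a was not analysed here. All 36 genes passed the filter on low counts, which left 15761 genes for testing.

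The mice were C57/Bl6 pups injected into the peritoneum on day 0, either with 25 mg/kg aurothioglucose (ATG), a gold compound known to inhibit thioredoxin reductase, or with saline. They then stayed in more than 95% oxygen for 72 h or in room air. The 12 libraries form 4 groups of 3: ATG hyperoxia, saline hyperoxia, ATG room air and saline room air. RNA came from whole lungs from which the lavage fluid had been removed, and every group received an injection. Nothing in the labels assigns samples to separate animals or litters. The p-values therefore describe the spread between these samples, part of which may be technical.

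Chemokines are small secreted proteins that direct the migration of cells along gradients, and their receptors are coupled to inhibitory G proteins. Ligands are divided by the spacing of their N-terminal cysteines into CC, CXC, CX3C and XC classes. Some are made constantly and place cells in tissues, such as Cxcl12, and others are induced by injury or infection, such as Ccl2, Cxcl1 and Cxcl10. In the lung the inducible CXC ligands that signal through Cxcr2 recruit neutrophils, and Ccl2 recruits monocytes through Ccr2.

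The stretch of DNA before the transcription start is shown for 4 of the members that changed with oxygen, 3 that fell and Cxcl10, an inducible member that rose. The sequences are the 250 bases before each start in RefSeq's GRCm38.p6 table, which held 26 of the 36 members with 30 starts in all. Ccl2, Cxcl5, Cxcl16 and Cxcl17 had no entry and are named only, and Ccl25 had more than 1 start. Capitals mark matches on either strand to the letters GGGANNTNC for the NF-kB type, TGANTCA for AP-1, GGGCGG for the GC box, TATAAA for the box of that name, TTTCNNTTT for the interferon response, TGACNNNGC for the antioxidant response and ACGTG for the hypoxia response core.
Cxcl12, chr6:117168285-117168534, plus strand: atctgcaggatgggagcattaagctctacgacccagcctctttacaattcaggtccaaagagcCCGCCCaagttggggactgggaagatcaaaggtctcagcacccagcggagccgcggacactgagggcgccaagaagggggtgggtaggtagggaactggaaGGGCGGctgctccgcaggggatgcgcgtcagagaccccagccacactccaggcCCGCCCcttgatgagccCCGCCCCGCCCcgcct
Cxcr4, chr1:128592300-128592549, minus strand: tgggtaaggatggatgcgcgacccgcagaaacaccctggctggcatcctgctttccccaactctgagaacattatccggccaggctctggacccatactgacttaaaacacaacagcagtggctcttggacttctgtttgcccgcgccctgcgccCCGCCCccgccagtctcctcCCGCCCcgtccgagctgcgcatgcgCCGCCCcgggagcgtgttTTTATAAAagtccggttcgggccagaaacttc
Cxcl15, chr5:90794284-90794533, plus strand: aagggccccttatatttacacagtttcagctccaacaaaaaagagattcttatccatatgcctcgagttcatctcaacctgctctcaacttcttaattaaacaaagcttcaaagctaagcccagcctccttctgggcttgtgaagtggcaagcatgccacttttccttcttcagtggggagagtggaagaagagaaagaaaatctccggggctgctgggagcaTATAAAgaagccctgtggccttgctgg
Cxcl10, chr5:92348890-92349139, minus strand: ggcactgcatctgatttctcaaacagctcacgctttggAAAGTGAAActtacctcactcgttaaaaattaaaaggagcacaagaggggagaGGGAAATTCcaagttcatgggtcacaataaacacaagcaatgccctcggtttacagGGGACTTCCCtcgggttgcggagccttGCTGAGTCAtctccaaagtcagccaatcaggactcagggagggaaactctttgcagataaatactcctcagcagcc

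The stretches of Cxcl12 and Cxcr4 hold GC boxes, 5 and 3 matches, where the Cxcr4 stretch also holds a TATA match on both strands just before the start. The Cxcl15 stretch has a TATA match and none of the other letters. The Cxcl10 stretch has NF-kB type matches at 2 places, the nearer one read on both strands, an interferon response match and an AP-1 match that lies within an antioxidant response match. Of the 32851 starts in the table, 12.5% held the NF-kB type letters, 6.75% AP-1, 32.7% the GC box, 12.4% TATA, 9.37% the interferon response letters, 10.2% the antioxidant response letters and 16.6% the hypoxia core. Among the 30 member starts the NF-kB type letters were present in 6 (Ccl22, Ccr6, Cx3cl1, Cxcl1, Cxcl10 and Cxcr2), the GC box in 5 and TATA in 8. A match describes letters only.

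Total counts were 14331749 to 20486735 per library. The lung label fitted the markers: the 7 alveolar type 2 genes summed to 13940 to 16582 CPM (counts divided by the TMM-adjusted library size and put on a scale common to all libraries) in hyperoxia and 12587 to 16718 CPM in room air. Several hyperoxia libraries stood apart in transcripts of other tissues. Saline hyperoxia 2 and 3 were high in Rag1, a gene of developing lymphocytes (39.2 and 15.0 CPM, at most 6.35 elsewhere). Atrial Nppa was high in ATG hyperoxia 2 and saline hyperoxia 2 (1108 and 269.8 CPM, at most 3.55 elsewhere), and skeletal muscle Myh8 in saline hyperoxia 1 (175 CPM, at most 15.3 elsewhere). Male pups, told by Xist and Y-linked counts, gave 2 of 3 libraries in ATG hyperoxia, 1 in saline hyperoxia, 1 in ATG room air and 3 in saline room air. In the average over injections 4 of 6 alveolar type 1 markers rose with hyperoxia and none fell (median log2 fold change of the list 0.29). Over all genes tested 11.0% were called higher and 11.3% lower in that average. Of 6 lymphatic markers Lyve1 rose and Flt4 fell (list median -0.03), and of 6 mast cell and basophil markers tested Kit fell and the others were not called (list median 0.39). The part of these cells in the results below was not tested. Called members that are lost without the libraries that stand apart are given with and without them. For other members such runs are given only in some cases, and genes outside the symbol rule are given without them. The spread is estimated over all libraries together. Leaving out a library that is not part of a comparison can therefore change a call there with little change in the log2 fold change. Leaving out the thymocyte-rich pair, saline hyperoxia 2 and 3, leaves saline hyperoxia 1 alone in its group. Leaving out the 3 heart- and muscle-rich libraries, saline hyperoxia 1 and 2 and ATG hyperoxia 2, leaves saline hyperoxia 3 alone. A value that involves saline hyperoxia in either run therefore rests on 1 library of that group. In bulk tissue, fewer cells of a type and less RNA per cell cannot be told apart, which applies to every gene below.

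Cxcl15, a CXC chemokine known in mice as lungkine and made by lung epithelium, was the most abundant member. Its median level per length was 763 CPM per kilobase of exon, with a range over the libraries of 564 to 963. It took 64.3% to 75.3% of all counts of the 36 genes. Next came Ccl6 at 46.4, Cxcr4 at 32.8, Cxcl17 at 31.1 and Cxcl12 at 27.0 CPM per kilobase, whose ranges overlap (Ccl6 31.5 to 60.9, Cxcr4 20.7 to 44.8, Cxcl17 9.60 to 45.4 and Cxcl12 20.1 to 38.7). Ccl11 stood at 17.7, Cxcl16 at 14.8, Ccl9 at 11.0 and Cxcr2 at 10.6 CPM per kilobase. At the other end Xcr1, the receptor of cross-presenting dendritic cells, stood at 0.0993 CPM per kilobase. Exon lengths are those of GENCODE vM21, since the counting annotation is not given in the sources used here.

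**Figure D1:**
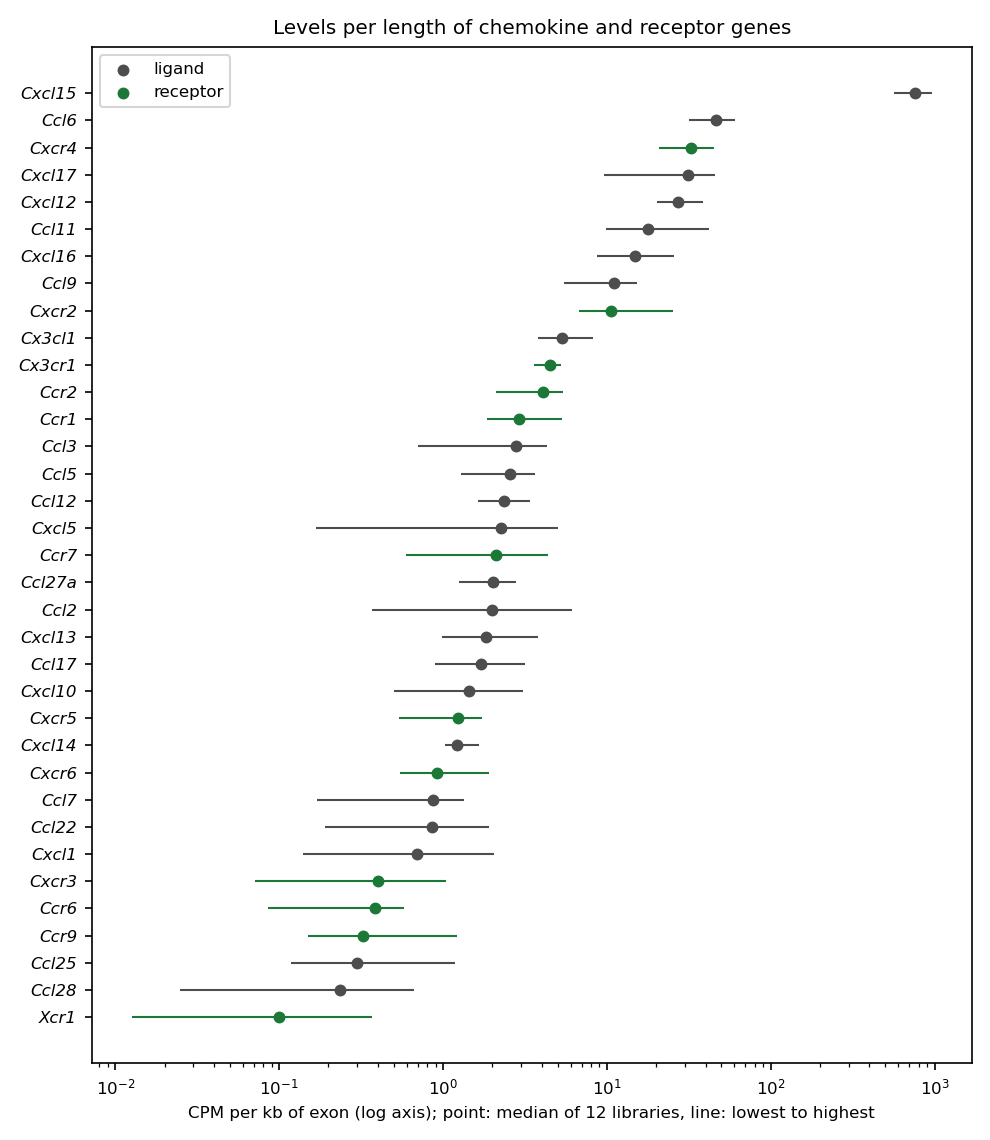
Levels of chemokine and receptor genes on a log axis, in CPM per kilobase of exon, with the median of the 12 libraries as a point and their lowest to highest value as a line, ligands in grey and receptors in green, ordered by the median. Cxcl15 stands far above the others with a median of 763, and Xcr1 is lowest with 0.0993.

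Hyperoxia against room air asks how oxygen exposure affects these genes, and it was tested after each injection and averaged over both. A gene was called at an adjusted p under 0.05 in edgeR's quasi-likelihood test, adjusted over all genes tested. After ATG 6 of 36 members were called: Ccl2, Cxcl5 and Cxcl16 rose, and Cxcl12, Cxcl15 and Cxcr4 fell. That is 16.7%, against 11.7% of all genes tested (5.41% higher and 6.25% lower). After saline 2 of 36 were called, Cxcl16 which rose and Cxcl12 which fell, or 5.56% against 9.19% of all genes (4.70% higher and 4.50% lower). Averaged over the injections 9 of 36 were called, the 6 just named with Ccl25, Cxcl10 and Cxcl17, which rose. This is 25.0%, against 22.4% of all genes (11.0% higher and 11.3% lower), so the share of members called was close to that of all genes tested. Among the 23 ligands 6 rose and 2 fell, and among the 13 receptors Cxcr4 alone was called. The median log2 fold change of the members was 0.07 after ATG, 0.13 after saline and 0.10 averaged, beside 0.0008, -0.0018 and -0.0028 over all genes tested.

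These counts moved with single libraries. After saline the count was 5 without saline room air 1, beside 973 of 16038 genes tested in that run. It was 1 without saline room air 2 (889 of 16039 genes), 4 without the atrial-rich pair of libraries (1536 of 15911) and 6 in DESeq2 (1920 of 15799). After ATG it was 3 without ATG room air 3 (1150 of 16044 genes). Averaged it was 14 without saline room air 1 (3163 of 16038 genes). With all libraries edgeR called 1449, 1838 and 3526 of 15761 genes after saline, after ATG and averaged.

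**Figure D2:**
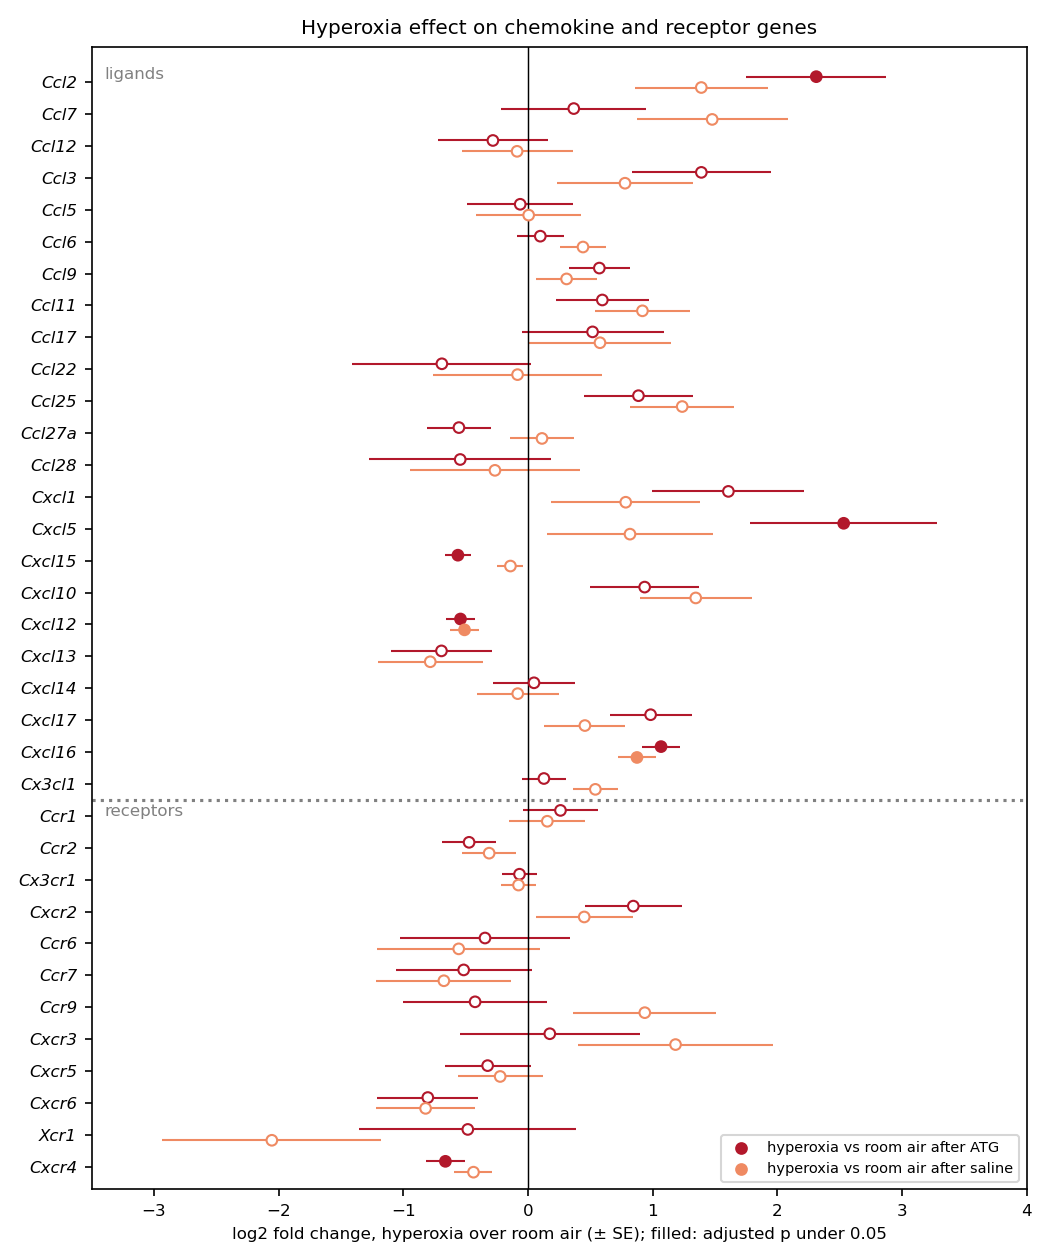
Log2 fold change of hyperoxia over room air with its standard error for chemokine and receptor genes, after ATG (dark red) and after saline (orange), with filled points where the adjusted p was under 0.05. Filled points are found for Ccl2, Cxcl5, Cxcl15, Cxcl12, Cxcl16 and Cxcr4 after ATG, and for Cxcl12 and Cxcl16 after saline.

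Cxcl12 and Cxcr4 form the ligand and receptor pair that retains hematopoietic cells in bone marrow and guides vessel growth, and both transcripts were lower in hyperoxia. Cxcl12 (chr6:117168535-117181368, protein-coding, GRCm38) stood at 213, 164 and 192 CPM in the ATG hyperoxia libraries and 173, 181 and 202 CPM in saline hyperoxia, against 285, 227 and 317 CPM in ATG room air and 257, 275 and 259 CPM in saline room air. Every hyperoxia library lay below every room air library. Its log2 fold change was -0.54 ± 0.12 (SE) after ATG (adjusted p = 0.00768) and -0.51 ± 0.12 after saline (adjusted p = 0.0143). Without saline room air 2 the change after saline was -0.47 and without saline hyperoxia 1 it was -0.45, both no longer called. It was -0.61 without the thymocyte-rich libraries saline hyperoxia 2 and 3, not called. Without the 3 heart- and muscle-rich libraries it was -0.37, not called either. Each of these last 2 runs left 1 library in saline hyperoxia. The change after ATG was -0.42 and not called without ATG room air 3. Averaged over the injections the change was -0.53 ± 0.08 (adjusted p = 0.000386), and this call held in every alternative run.

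Cxcr4 (chr1:128588199-128592299, protein-coding, GRCm38) had 38.0, 53.0 and 37.5 CPM in ATG hyperoxia and 51.7, 60.1 and 51.7 CPM in saline hyperoxia, against 79.1, 58.5 and 65.5 CPM in ATG room air and 81.0, 79.5 and 60.8 CPM in saline room air. The groups did not overlap after either injection. Cxcr4 fell after ATG, with a log2 fold change of -0.66 ± 0.15 (adjusted p = 0.0113), a call that was lost without ATG hyperoxia 1 (-0.57) and without ATG room air 1 (-0.52). After saline the value was -0.44 ± 0.15 and did not pass (adjusted p = 0.0921), although 4 of 22 alternatives called it: DESeq2, the 6 compared samples alone, ATG hyperoxia 2 left out and the atrial-rich pair left out (-0.43 to -0.50, adjusted p 0.0335 to 0.0449). Averaged over the injections the change of Cxcr4 was -0.55 ± 0.11 (adjusted p = 0.00202), a call that held in every alternative run. The interaction of ATG and hyperoxia did not pass (-0.23 ± 0.22, adjusted p = 1). Ackr3, the atypical receptor that binds and removes Cxcl12, is no member by its symbol and went the other way. It had 131, 131 and 129.9 CPM in ATG hyperoxia and 93.0, 102 and 96.7 CPM in saline hyperoxia, against 79.4, 103 and 102 CPM in ATG room air and 80.8, 71.9 and 64.4 CPM in saline room air. Its log2 fold change was 0.46 ± 0.10 after ATG (adjusted p = 0.00993) and 0.42 ± 0.10 after saline (adjusted p = 0.0205). Beside these genes, the 6 endothelial markers summed to 2172 to 2597 CPM in hyperoxia and 2324 to 2746 CPM in room air, which overlap, and none of the 6 was called after either injection. Averaged over the injections the endothelial markers Cldn5 and Emcn rose.

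**Figure D3:**
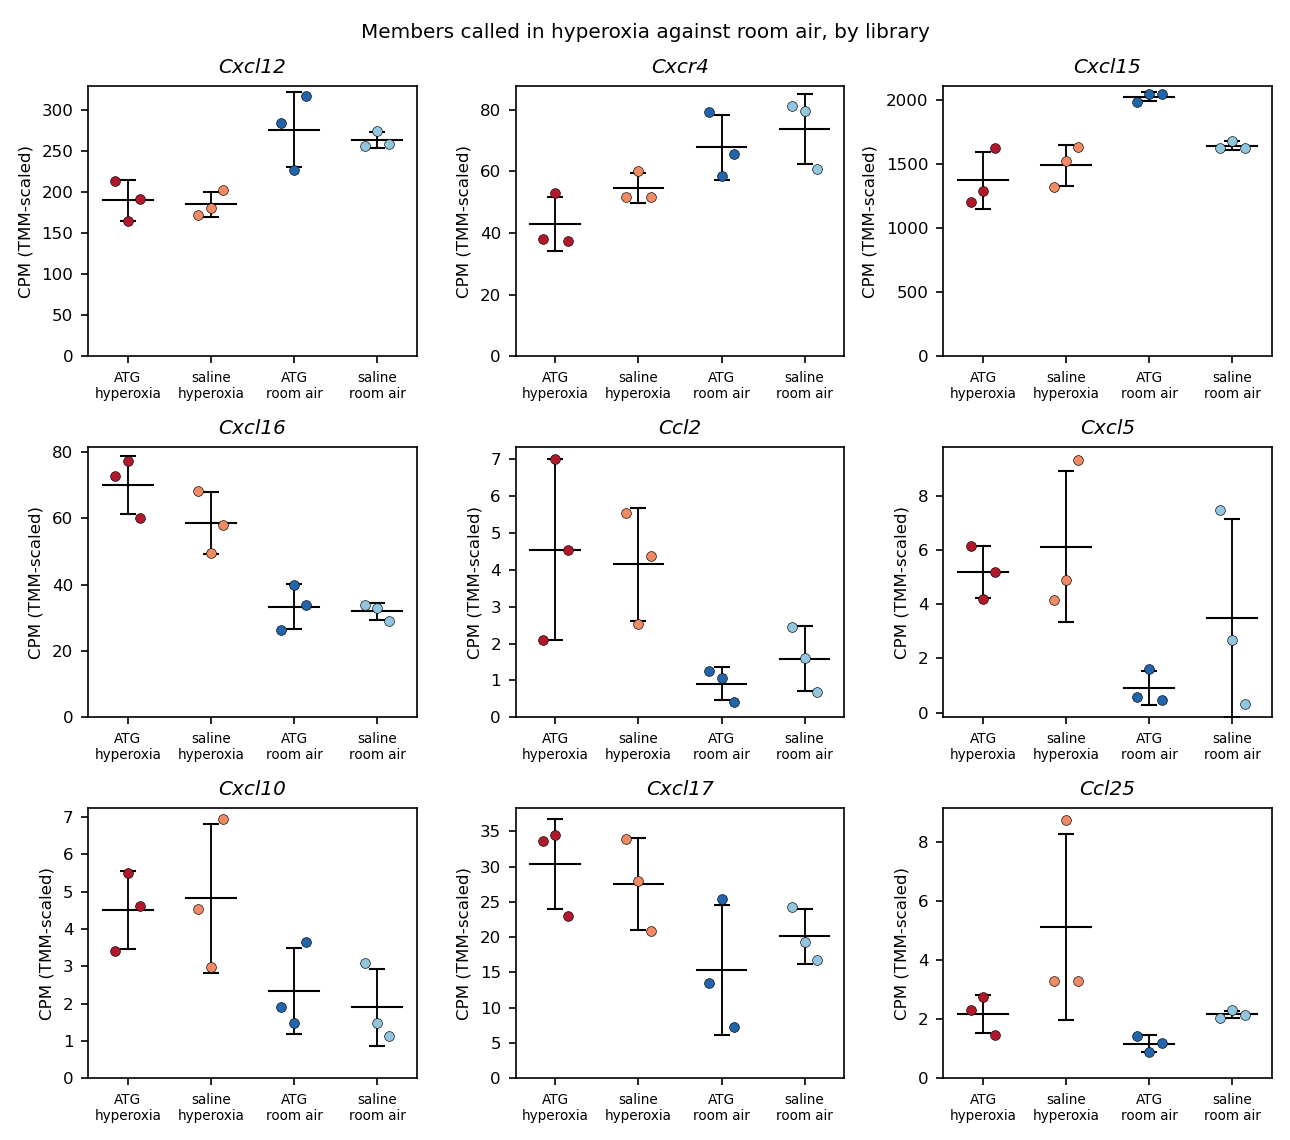
CPM of the 9 members called for hyperoxia in any comparison, 1 point per library with the group mean and SD (n = 3), for ATG hyperoxia, saline hyperoxia, ATG room air and saline room air from left to right. In the Cxcl12 panel all hyperoxia points lie below all room air points, and in the Cxcl16 panel all lie above.

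Cxcl15 fell in hyperoxia after ATG. Its level was 1199, 1291 and 1624 CPM in ATG hyperoxia and 1317, 1521 and 1631 CPM in saline hyperoxia, against 1983, 2043 and 2048 CPM in ATG room air and 1624, 1682 and 1622 CPM in saline room air. The ATG room air libraries were the highest of all 12, and saline hyperoxia overlapped saline room air. The log2 fold change of hyperoxia was -0.56 ± 0.10 after ATG (adjusted p = 0.00281), called in every alternative run, and -0.14 ± 0.10 after saline (adjusted p = 0.462). The interaction itself was -0.42 ± 0.15 with an unadjusted p of 0.0122 and an adjusted p of 1, so a difference between the injections was not shown. Averaged over the injections the change was -0.35 ± 0.07 (adjusted p = 0.00314), and without the 3 heart- and muscle-rich libraries it was -0.24 and not called. Among the 7 alveolar type 2 markers Sftpa1 fell after ATG, with a log2 fold change of -0.59 ± 0.11 (adjusted p = 0.00347), and the other 6 were not called. After saline 4 of these 7 markers rose and Sftpa1 fell. Over all genes tested 4.70% were called higher and 4.50% lower after saline, and 6.25% lower after ATG. The part of such markers in the Cxcl15 result was not tested.

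Cxcl5 and Cxcl1, which attract neutrophils through Cxcr2, lie in the same cluster on chromosome 5 as Cxcl15, which is 32909 bases from Cxcl5 and 88178 bases from Cxcl1. Cxcl5 (chr5:90759298-90761625) stood at 6.12, 4.21 and 5.17 CPM in ATG hyperoxia and 4.17, 4.88 and 9.31 CPM in saline hyperoxia, against 0.592, 1.61 and 0.479 CPM in ATG room air and 7.46, 2.67 and 0.314 CPM in saline room air. After ATG the groups did not overlap, and after saline they did, since saline room air 1 was high and saline room air 3 low. Cxcl5 rose after ATG by 2.53 ± 0.75 on the log2 scale (adjusted p = 0.0411). Of 22 alternatives 9 ended this call, among them limma-voom, sex as a covariate, and leaving out ATG hyperoxia 1 or 3, ATG room air 1 or 3, saline room air 2 or the thymocyte-rich pair, with log2 fold changes of 2.23 to 2.70 in those that ended it. After saline the value was 0.82 ± 0.67 (adjusted p = 0.513) and the averaged one 1.68 ± 0.50 (adjusted p = 0.0261). The averaged call was lost without saline hyperoxia 3 (1.46), ATG room air 1 (1.57), ATG room air 3 (1.53), saline room air 2 (1.60) or the thymocyte-rich libraries (1.40). Cxcl1 had 2.26, 3.36 and 2.17 CPM in ATG hyperoxia and 1.60, 0.705 and 3.84 CPM in saline hyperoxia, against 0.263, 1.01 and 1.26 CPM in ATG room air and 1.30, 1.30 and 0.942 CPM in saline room air. Its averaged log2 fold change of 1.20 ± 0.43 did not pass (adjusted p = 0.0585), while 5 of 21 alternatives called it, among them DESeq2 (1.21, adjusted p = 0.0265).

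Cxcr2, the receptor of these ligands on neutrophils, had 33.2, 38.5 and 65.1 CPM in ATG hyperoxia and 77.4, 20.6 and 26.2 CPM in saline hyperoxia, against 21.4, 31.5 and 23.4 CPM in ATG room air and 32.9, 34.1 and 24.2 CPM in saline room air. Saline hyperoxia 1 and ATG hyperoxia 3 were the highest, and the same libraries were highest in the neutrophil gene S100a9, picked after its values were seen, which had 90.4, 93.5 and 123 CPM in ATG hyperoxia and 130.1, 26.8 and 41.3 CPM in saline hyperoxia, against 42.2, 88.1 and 54.4 CPM in ATG room air and 43.7, 55.9 and 40.5 CPM in saline room air. The 11 neutrophil markers together summed to 335 to 459 CPM in ATG hyperoxia and 162 to 381 CPM in saline hyperoxia, against 259 to 473 CPM in ATG room air and 233 to 422 CPM in saline room air, which overlap. The order of these sums differed from that of Cxcr2, since the highest was that of ATG room air 2, and saline hyperoxia 1 stood at 381 CPM. Of the 10 neutrophil markers tested Lcn2 fell after saline, and none was called after ATG or in the average. At most 1 of the 11 was at 0 in any library. After ATG the Cxcr2 groups did not overlap. Its log2 fold change was 0.84 ± 0.39 after ATG (adjusted p = 0.193) and 0.45 ± 0.39 after saline (adjusted p = 0.54). After saline it was -0.37 without saline hyperoxia 1. It was 1.35 without saline hyperoxia 2 and 3, where saline hyperoxia 1, its highest library, stood alone in its group. The direction after saline thus rests on single libraries. After ATG 3 of 22 alternatives called it, those without saline hyperoxia 1, the thymocyte-rich pair or the 3 heart- and muscle-rich libraries (0.85 to 0.98). The last 2 of these runs left 1 library in saline hyperoxia. The first 2 left out only saline hyperoxia libraries, which are not part of the comparison after ATG. In them the change stayed near its value of 0.84, at 0.86 and 0.85. These calls thus came with a changed estimate of the spread, which all libraries share, and hardly with a changed effect. The averaged value of 0.65 ± 0.28 did not pass (adjusted p = 0.11) and was called in 3 of 21 alternatives. The part of neutrophil number in these values was not tested.

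Ccl2, the main ligand of the monocyte receptor Ccr2, rose in hyperoxia. Ccl2 (chr11:82035577-82037452) had 2.10, 7.01 and 4.53 CPM in ATG hyperoxia and 5.56, 2.53 and 4.38 CPM in saline hyperoxia, against 1.25, 1.08 and 0.419 CPM in ATG room air and 2.46, 1.61 and 0.691 CPM in saline room air. The groups did not overlap after either injection, although ATG hyperoxia 1 lay below saline room air 1. After ATG the log2 fold change was 2.31 ± 0.56 (adjusted p = 0.015), a call lost in limma-voom (2.27), without ATG hyperoxia 2 (1.88), without ATG room air 3 (1.97) and without the 3 heart- and muscle-rich libraries (1.89). After saline the value was 1.39 ± 0.54 and did not pass (adjusted p = 0.13). Averaged it was 1.85 ± 0.39 (adjusted p = 0.00316), called in every alternative run.

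Ccl7, another Ccr2 ligand that lies 8260 bases from Ccl2 on chromosome 11, had at most 1.08 CPM in any library, and its averaged value was 0.92 ± 0.42 (adjusted p = 0.134). Ccl12, a further Ccr2 ligand of the mouse, had 0.875 to 1.53 CPM in hyperoxia and 0.958 to 1.82 CPM in room air, with an averaged value of -0.18 ± 0.31. Ccr2 averaged 20.9 ± 5.73 CPM in ATG hyperoxia and 25.5 ± 3.60 CPM in saline hyperoxia, against 29.0 ± 7.73 CPM in ATG room air and 31.6 ± 4.48 CPM in saline room air (SD, n = 3 each). Its averaged log2 fold change of -0.39 ± 0.15 did not pass (adjusted p = 0.0842), and 1 of 21 alternatives called it, that without ATG room air 3 (-0.48). The 13 monocyte and macrophage markers summed to 347 to 441 CPM in hyperoxia and 349 to 448 CPM in room air, with none at 0 in any library. Of those 13, Ear2 fell after both injections, Mrc1 fell after ATG, and Cd68 and C1qb rose in the average.

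Ccl3, Ccl5, Ccl6 and Ccl9 signal through Ccr1. None of these 4 ligands was called for hyperoxia, nor was Ccr1. Ccl3 came closest among the ligands, with 3.25, 2.30 and 3.10 CPM in ATG hyperoxia and 2.32, 1.59 and 3.29 CPM in saline hyperoxia, against 2.04, 0.538 and 0.719 CPM in ATG room air and 2.26, 0.558 and 1.38 CPM in saline room air. Its averaged log2 fold change was 1.08 ± 0.39 (adjusted p = 0.0607), and 7 of 21 alternatives called it, among them DESeq2 (1.09, adjusted p = 0.0278) and limma-voom (1.26, adjusted p = 0.0271). Ccl6, next to Cxcl15 in level per length, averaged 85.5 ± 18.6 CPM in ATG hyperoxia and 98.2 ± 10.8 CPM in saline hyperoxia, against 79.9 ± 15.7 CPM in ATG room air and 72.4 ± 19.2 CPM in saline room air (SD, n = 3 each), with an averaged change of 0.27 ± 0.13 (adjusted p = 0.165). Ccl9 averaged 40.6 ± 5.17 CPM in ATG hyperoxia and 33.0 ± 5.50 CPM in saline hyperoxia, against 27.4 ± 8.10 CPM in ATG room air and 26.7 ± 10.2 CPM in saline room air (SD, n = 3 each). Its averaged value of 0.44 ± 0.17 did not pass (adjusted p = 0.0851), and 4 of 21 alternatives called it, DESeq2 and limma-voom among them. Ccl5 had 1.23 to 3.09 CPM in hyperoxia and 1.37 to 3.47 CPM in room air. Ccr1 had an averaged value of 0.21 ± 0.21.

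Cxcl16 and Cx3cl1 are the chemokines made as transmembrane proteins, which can be shed by metalloproteases. Cxcl16 (chr11:70454389-70459984, protein-coding, GRCm38) had 72.8, 77.2 and 60.2 CPM in ATG hyperoxia and 68.3, 49.5 and 58.0 CPM in saline hyperoxia, against 26.4, 40.0 and 33.8 CPM in ATG room air and 33.9, 33.1 and 29.0 CPM in saline room air. Every hyperoxia library lay above every room air library. The log2 fold change was 1.07 ± 0.15 after ATG (adjusted p = 0.000549), 0.87 ± 0.15 after saline (adjusted p = 0.00302) and 0.97 ± 0.11 averaged (adjusted p = 2.41e-05). All 3 calls held in every alternative run. Exons of Zmynd15 on the opposite strand overlap 552 bases (18.3%) of the Cxcl16 exons, and strand handling is not given in the sources used here. Zmynd15 itself had 0.365 to 1.59 CPM in hyperoxia and 0.592 to 1.92 CPM in room air and was not called.

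Cxcr6, the receptor of Cxcl16 on T and natural killer cells, had 1.05, 1.51 and 1.13 CPM in ATG hyperoxia and 1.90, 1.70 and 1.52 CPM in saline hyperoxia, against 1.32, 3.30 and 1.86 CPM in ATG room air and 2.46, 2.92 and 3.71 CPM in saline room air. Its averaged value of -0.81 ± 0.28 missed the threshold (adjusted p = 0.052) and was called by DESeq2 (adjusted p = 0.0391) and without ATG room air 1 (adjusted p = 0.0338). The 10 T and natural killer cell markers summed to 15.5 to 49.9 CPM in hyperoxia and 16.9 to 27.1 CPM in room air, and none was called. Cx3cl1 averaged 21.6 ± 1.77 CPM in ATG hyperoxia and 25.6 ± 6.40 CPM in saline hyperoxia, against 19.7 ± 1.91 CPM in ATG room air and 17.6 ± 3.23 CPM in saline room air (SD, n = 3 each). The averaged change of 0.33 ± 0.13 did not pass (adjusted p = 0.0723) and was called in 5 of 21 alternatives. After saline it was 0.54 ± 0.18 (adjusted p = 0.0752), called in 5 of 22 alternatives. Both counts include the run without the 3 heart- and muscle-rich libraries (0.90 after saline), where saline hyperoxia 3 stood alone in its group. Its receptor Cx3cr1, a gene of patrolling monocytes and macrophages, had 16.1 to 23.6 CPM in hyperoxia and 19.5 to 22.2 CPM in room air, with an averaged value of -0.07 ± 0.10.

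Cxcl10, an interferon-induced ligand of Cxcr3, rose in hyperoxia in the average. It had 3.42, 5.49 and 4.63 CPM in ATG hyperoxia and 4.53, 3.00 and 6.94 CPM in saline hyperoxia, against 1.91, 1.48 and 3.65 CPM in ATG room air and 3.08, 1.49 and 1.13 CPM in saline room air. The groups overlapped after each injection, through ATG room air 3 and saline room air 1. The averaged log2 fold change was 1.14 ± 0.31 (adjusted p = 0.0169), and 1.10 without a call when the thymocyte-rich libraries were left out. After ATG it was 0.94 ± 0.44 (adjusted p = 0.201) and after saline 1.35 ± 0.45 (adjusted p = 0.0775), where 3 of 22 alternatives called it. Exons of Art3 on the opposite strand overlap 133 bases (5.91%) of its exons. Cxcr3 had 0.529 to 1.43 CPM in hyperoxia and 0.124 to 1.80 CPM in room air and was not called.

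Cxcl17, a ligand made by mucosal epithelium, rose in the average. It had 33.6, 34.5 and 23.1 CPM in ATG hyperoxia and 33.9, 28.0 and 20.8 CPM in saline hyperoxia, against 13.5, 25.4 and 7.31 CPM in ATG room air and 24.3, 19.4 and 16.7 CPM in saline room air. The groups overlapped after each injection. After ATG the log2 fold change was 0.98 and did not pass (adjusted p = 0.0683), though 4 of 22 alternatives called it. After saline it was not called. The averaged log2 fold change was 0.72 ± 0.23 (adjusted p = 0.0364), and 11 of 21 alternatives ended the call, including DESeq2 (0.72), the atrial-rich pair left out (0.68), the 3 heart- and muscle-rich libraries left out (0.48), and each of ATG hyperoxia 1 and 2, saline hyperoxia 1 and 2, ATG room air 1 and 3 and saline room air 2 and 3 left out (0.56 to 0.73). Among the other ligands made constantly, Cxcl13, which places B cells in follicles, had 1.13 to 2.25 CPM in hyperoxia and 1.76 to 4.37 CPM in room air. Its averaged value of -0.74 ± 0.29 did not pass (adjusted p = 0.0868). It was called in 2 of 21 alternatives, those without ATG room air 2 or saline hyperoxia 3 (-0.87 and -0.93). Its receptor Cxcr5 was -0.27 ± 0.24 (adjusted p = 0.465), beside 7 B cell markers that summed to 25.2 to 67.1 CPM in hyperoxia and 43.3 to 63.5 CPM in room air, none of them called. Cxcl14 had 1.88 to 2.74 CPM in hyperoxia and 1.92 to 3.04 CPM in room air, with an averaged value of -0.02 ± 0.23.

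Ccl25, which draws developing T cells into the thymus and T cells to the gut, rose in the average. It had 2.32, 2.75 and 1.48 CPM in ATG hyperoxia and 3.29, 8.75 and 3.29 CPM in saline hyperoxia, against 1.45, 0.875 and 1.20 CPM in ATG room air and 2.05, 2.30 and 2.14 CPM in saline room air. Saline hyperoxia 2 was the highest of all libraries. After saline the log2 fold change was 1.24 and did not pass (adjusted p = 0.0808), while 1 of 22 alternatives, DESeq2, called it (adjusted p = 0.0452). After ATG it was not called. The averaged log2 fold change was 1.06 ± 0.30 (adjusted p = 0.0204). It was 0.76 without saline hyperoxia 2, 0.66 without the atrial-rich pair, 0.75 without the thymocyte-rich pair, 0.66 without the 3 heart- and muscle-rich libraries and 0.94 in limma-voom, none of them called. Exons of Elavl1 on the opposite strand overlap 204 bases (2.74%) of the Ccl25 exons. The 5 thymic epithelial markers summed to 3.92 to 7.79 CPM in ATG hyperoxia and 5.04 to 22.8 CPM in saline hyperoxia, against 1.95 to 4.43 CPM in ATG room air and 3.35 to 5.20 CPM in saline room air. The highest sum was that of saline hyperoxia 2. Foxn1, which defines thymic epithelium, was at 1.23 CPM in saline hyperoxia 2, 0.426 in saline hyperoxia 3 and 0.124 in saline room air 2, and at 0 in the other 9 libraries.

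Ccr9, the receptor of Ccl25 on thymocytes, had 3.75, 2.47 and 2.56 CPM in ATG hyperoxia and 2.37, 12.5 and 3.65 CPM in saline hyperoxia, against 5.79, 1.55 and 4.43 CPM in ATG room air and 1.85, 2.98 and 4.77 CPM in saline room air. Saline hyperoxia 2, the library highest in Rag1, was again the highest. The value after saline of 0.94 ± 0.57 did not pass (adjusted p = 0.365), and it was -0.08 without saline hyperoxia 2. The 10 thymocyte markers summed to 79.3 to 94.3 CPM in ATG hyperoxia and 92.5 to 224 CPM in saline hyperoxia, against 95.7 to 125 CPM in ATG room air and 105 to 126 CPM in saline room air, with up to 3 of them at 0 in a library. On the opposite strand, exons of a transcript outside the count table overlap 1932 bases (18.8%) of the Ccr9 exons. The part of thymic tissue in the Ccl25 and Ccr9 values was not tested.

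Of the remaining CC ligands, Ccl11, which attracts eosinophils, had 26.5, 36.9 and 21.2 CPM in ATG hyperoxia and 45.1, 17.9 and 18.8 CPM in saline hyperoxia, against 10.7, 27.7 and 17.5 CPM in ATG room air and 19.6, 11.9 and 11.99 CPM in saline room air. Its highest library was saline hyperoxia 1, which was also the highest in Myh8. The averaged log2 fold change of 0.76 ± 0.27 missed the threshold (adjusted p = 0.0542), and 9 of 21 alternatives called it. The largest change among those 9 was 1.12, without the thymocyte-rich pair, where saline hyperoxia 1 stood alone in its group. The others ran from 0.76 to 0.97 (adjusted p 0.0177 to 0.0471). The averaged change was 0.48 without saline hyperoxia 1 and 0.38 without the 3 heart- and muscle-rich libraries, neither called. After saline the value was 0.92 ± 0.38 (adjusted p = 0.16) and 0.35 without saline hyperoxia 1. It was 1.64 without the thymocyte-rich pair, which leaves saline hyperoxia 1, its highest library, alone in its group. The 7 skeletal muscle markers summed to 30.9 to 74.5 CPM in ATG hyperoxia and 25.6 to 408 CPM in saline hyperoxia, against 46.9 to 74.5 CPM in ATG room air and 40.2 to 48.5 CPM in saline room air. Their part in the Ccl11 values was not tested. The Ccr4 ligands Ccl17 and Ccl22 were not called, with averaged values of 0.55 ± 0.40 and -0.39 ± 0.49. Ccl28, a mucosal ligand, was at -0.40 ± 0.50. Ccl27a, a skin ligand with near-identical gene copies whose reads may be split, is uncertain, with -0.22 ± 0.18. The lymphoid and dendritic cell receptors Ccr6, Ccr7 and Xcr1 had averaged values of -0.45 ± 0.47, -0.60 ± 0.38 and -1.27 ± 0.62, none called. The value of Xcr1 after saline was -2.05 ± 0.88, at a level of 0.154 to 0.609 CPM in saline hyperoxia and 1.12 to 1.63 CPM in saline room air (adjusted p = 0.177).

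**Figure D4:**
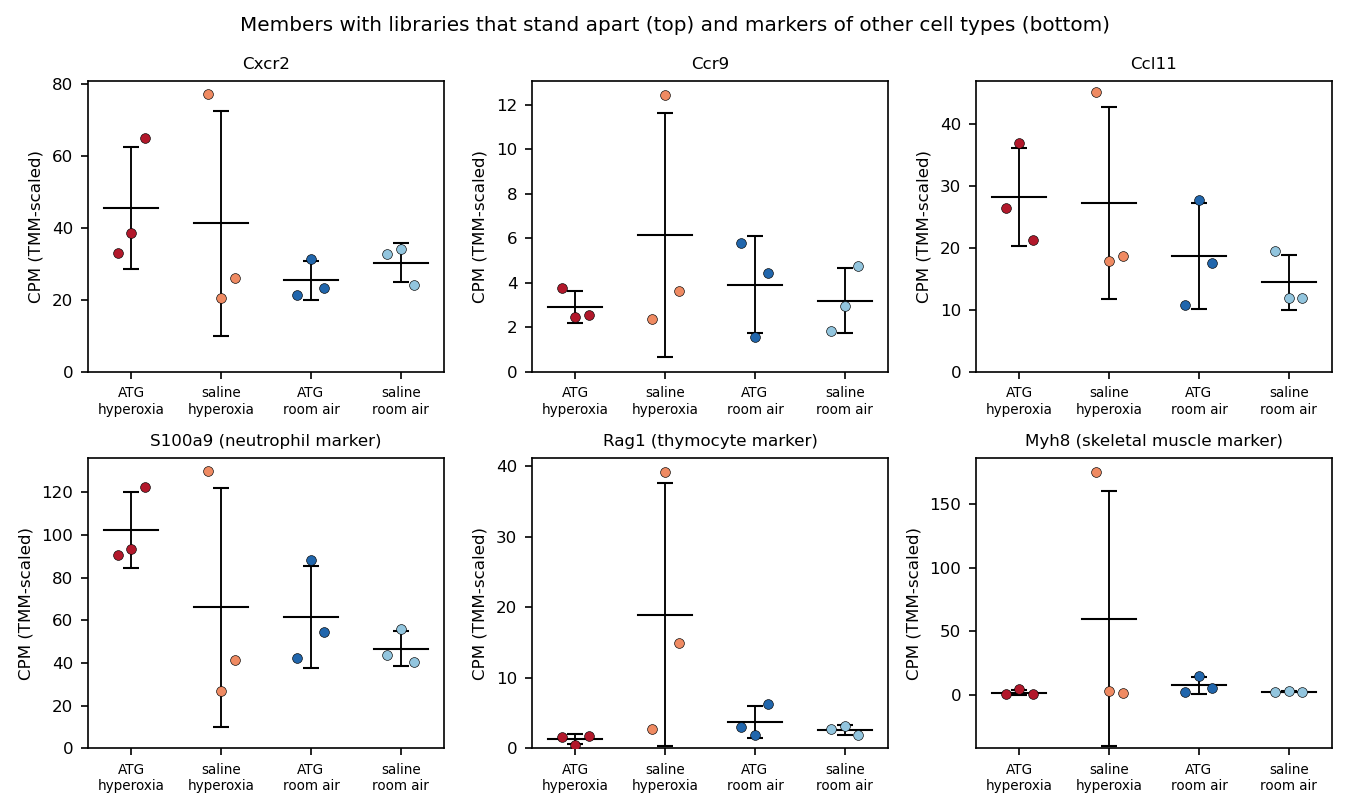
CPM of Cxcr2, Ccr9 and Ccl11 (top) above S100a9, Rag1 and Myh8 (bottom), 1 point per library with the group mean and SD (n = 3), groups from left to right as ATG hyperoxia, saline hyperoxia, ATG room air and saline room air. In saline hyperoxia a single library carries the highest Cxcr2, Ccr9 or Ccl11 value, and the same library is highest in the marker drawn below it. S100a9 was picked after its values were seen. The 11 neutrophil markers together were highest in ATG room air 2 (473 CPM), with saline hyperoxia 1 at 381 CPM.

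ATG against saline asks whether the gold compound affects these genes, and no member was called in any of its comparisons. In hyperoxia 0 of 36 were called, against 0.00634% of all genes (1 gene), in room air 0 of 36, against 0%, and averaged over oxygen 0 of 36, against 0.0444% (7 genes). The interaction of ATG and hyperoxia gave 0 of 36, against 0%. At an unadjusted p under 0.05 there were 3, 2, 5 and 1 members in these 4 comparisons in edgeR. Over all 15761 genes the edgeR counts were 897, 949, 1335 and 465. DESeq2 gave 4, 2, 5 and 1 members, beside 942, 985, 1384 and 489 genes. In limma-voom there were 3, 1, 4 and 1 members, beside 946, 886, 1342 and 458 genes. No member passed the adjustment in any of these tools. The median log2 fold change of the members was -0.05 in hyperoxia, -0.12 in room air and -0.06 averaged over oxygen. Over all genes tested these medians were 0.00093, 0.011 and 0.0025.

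The member with the smallest unadjusted p in hyperoxia was Ccl25, which was lower in every ATG hyperoxia library than in every saline hyperoxia library, at -1.23 ± 0.41 on the log2 scale (unadjusted p = 0.00993, adjusted p = 0.718). Without saline hyperoxia 2, the library highest in thymic epithelial markers, it was -0.60 (adjusted p = 0.958), without the thymocyte-rich pair -0.59, without the atrial-rich pair -0.79 and without the 3 heart- and muscle-rich libraries -0.80. In room air the ATG and saline groups of Ccl25 did not overlap either (-0.88 ± 0.44, adjusted p = 0.845). Cxcl15 was higher in every ATG room air library than in every saline room air library, at 0.30 ± 0.10 (unadjusted p = 0.0113, adjusted p = 0.818), and in hyperoxia its value was -0.12 ± 0.10. Cxcl5 in room air was at -1.96 ± 0.76 (adjusted p = 0.818), with overlapping groups, and at -0.75 without saline room air 1. Cxcr4 in hyperoxia was at -0.35 ± 0.15 (adjusted p = 0.85), and at -0.52 without ATG hyperoxia 2, and Ccl27a at -0.59 ± 0.26 (adjusted p = 0.847). For Cxcl12 the ATG value was 0.04 ± 0.12 in hyperoxia and 0.07 ± 0.12 in room air, and for Cxcl16 it was 0.26 ± 0.15 in hyperoxia and 0.06 ± 0.16 in room air. The Cxcl16 value in hyperoxia was 0.07 without the atrial-rich pair and 0.04 without the thymocyte-rich pair. These values do not show that ATG left a gene as it was. The comparisons of ATG and of hyperoxia share libraries, so a room air group that is high or low enters both.

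Genes that remove, carry, shape or transmit chemokines were counted from fixed lists. Their calls are from the fit over all libraries alone, not from runs with libraries left out. Of 9 scavenging and related receptors tested, 1 rose and 2 fell after each injection, against 5.41% higher and 6.25% lower over all genes after ATG and 4.70% and 4.50% after saline. Ackr3 rose, and Ccrl2, which binds chemerin, fell, with log2 fold changes of -0.75 after ATG and -0.68 after saline (adjusted p = 0.00515 and 0.0133). Fpr1, the receptor of formylated peptides on neutrophils, fell too, with -0.78 after ATG and -0.75 after saline (adjusted p = 0.019 and 0.0291). Of 9 chemokine-like ligands outside the symbol rule, Mif rose after ATG and none was called after saline, against 11.7% and 9.19% of all genes called. Mif, a cytokine that can bind Cxcr2 and Cxcr4, had 32.8, 26.7 and 31.4 CPM in ATG hyperoxia and 19.5, 25.5 and 25.3 CPM in saline hyperoxia, against 14.3, 18.1 and 17.3 CPM in ATG room air and 16.9, 18.1 and 16.7 CPM in saline room air. Its log2 fold change was 0.87 ± 0.14 after ATG (adjusted p = 0.00115) and 0.44 ± 0.14 after saline (adjusted p = 0.0676). Averaged over the injections, Csf1 of the same list rose too (0.29 ± 0.07, adjusted p = 0.00737). That made 2 of 9 called, against 22.4% of all genes.

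Of 19 genes of receptor signalling and desensitisation, none was called after ATG, against 11.7% of all genes. After saline 1 of 19 was called, against 9.19%: Rgs2, which limits G protein signals, fell (-0.58 ± 0.14, adjusted p = 0.02). In the average Arrb1, an arrestin that uncouples receptors, fell as well (-0.22 ± 0.07, adjusted p = 0.0435). There 2 of 19 were called, against 22.4% of all genes. Of 12 genes of chemokine processing and presentation, 2 rose and none fell after each injection, or 16.7% called, against 11.7% of all genes after ATG and 9.19% after saline. Mmp2, a protease that can truncate chemokines, rose by 0.64 after ATG and 0.64 after saline on the log2 scale (adjusted p = 0.0136 and 0.017). Sdc1, a heparan sulfate proteoglycan that holds chemokines on the cell surface, rose by 0.32 and 0.36 (adjusted p = 0.0226 and 0.0171). Ext1, which builds heparan sulfate chains, fell in the average (-0.33 ± 0.08, adjusted p = 0.00711).

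Of 10 inducers and feedback genes of the inducible chemokines that were tested, 2 rose after each injection and 4 in the average, and none fell, against 5.41%, 4.70% and 11.0% of all genes higher after ATG, after saline and in the average. Rela, an NF-kB subunit, rose by 0.42 after ATG and 0.38 after saline on the log2 scale (adjusted p = 0.00613 and 0.0138). Tnfaip3, which ends NF-kB signalling, rose by 0.53 and 0.53 (adjusted p = 0.012 and 0.0148). Nfkbia and Hif1a were the others called in the average, at 0.43 ± 0.11 (adjusted p = 0.0117) and 0.24 ± 0.06 (adjusted p = 0.0107). Il1b and Tnf were not called, with averaged values of 0.71 ± 0.29 and -0.04 ± 0.27. No gene of these 5 lists was called for ATG against saline in hyperoxia, in room air or in the average. The lists were chosen with earlier results of these data known, so their counts describe these libraries only.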

How the data were processed

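Whole newborn lungs were measured by RNA-seq in 12 libraries, with cDNA amplified by the NuGEN Ovation kit and Nextera XT libraries, per the labels' protocols. The authors deposited raw counts per gene symbol. Per the submitters' processing notes, Bowtie2, Cufflinks and DESeq were used with build mm10, and no version is listed. For the counter, its annotation and its use of strand, the sources used here give nothing. Amplified reads are not independent molecules.

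From the counts, filterByExpr (minimum count 10, minimum total 15) kept 15761 genes. TMM-scaled counts were fitted over all libraries as 4 group means with edgeR's quasi-likelihood test (glmQLFit and glmQLFTest, edgeR 4.0.16, R 4.3.3, 8 residual degrees of freedom, common biological coefficient of variation 18.7%), in 7 contrasts, with two-sided p-values adjusted by Benjamini-Hochberg over all genes at 0.05. The fit was also run on counts simulated from the means and dispersions of these data, with changes in saline hyperoxia only. No simulated library was made to stand apart, so that run cannot show how the fit handles such libraries. Replicates differed beyond sampling noise (chi-square per degree of freedom 6.83 to 41.9). Positions come from RefSeq GRCm38.p6. Alternatives were DESeq2 1.42.0, limma-voom (limma 3.58.1), RLE size factors, no filter, a replicate block, the 6 compared samples alone, libraries left out and sex. Named genes are the called members and a fixed list of members, with up to 4 called genes per pathway list. The values of 1 member are not reported here. The members and lists were chosen with earlier results of these data known.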

Additional observations from a re-analysis of the deposited data

How the results depend on the processing

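Of the counts of called members, those for ATG against saline and for the interaction were 0 in every alternative run. For hyperoxia, leaving out each library in turn gave 1 to 5 members after saline, 3 to 8 after ATG and 7 to 14 in the average. Over all genes the same runs called 740 to 1704, 1150 to 2045 and 2917 to 3683 of 16006 to 16065 tested. After saline DESeq2 gave 6 and leaving out the atrial-rich pair gave 4, beside 2, and both held Cxcl12 and Cxcl16. The other counts stayed within 1.5 times, and levels moved by less than the replicate SD when CPM used total counts. A like count need not mean the same members. After saline Cxcl12 left the calls and other members entered them in 2 runs, those without the thymocyte-rich pair (-0.61) or the 3 heart- and muscle-rich libraries (-0.37). Each of those runs left 1 library in saline hyperoxia. Over all genes DESeq2 called 10 for ATG in hyperoxia, 17 in room air and 96 in the average, beside 1, 0 and 7 in edgeR.

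The direction turned in values that were not called, and the cause was not tested. With each library left out in turn, the log2 fold change of hyperoxia after saline ran from -0.371 to 0.783 for Cxcr2, -0.0820 to 1.34 for Ccr9, -0.232 to 0.129 for Cxcl14, -0.0283 to 1.20 for Cxcl1 and -0.215 to 0.0553 for Cx3cr1. After ATG it ran from -0.0790 to 0.281 for Ccl6, -0.0329 to 0.155 for Cxcl14 and -1.80 to 0.692 for Xcr1. Without the atrial-rich pair Ccr9 was -0.0835 and Cxcl14 0.0481 after saline, and Xcr1 was 0.0350 after ATG. Without the 3 heart- and muscle-rich libraries Cxcr2 was -0.198, Cxcl14 0.199 and Cxcl15 0.00536 after saline, and Xcr1 was 0.0481 after ATG. Without the thymocyte-rich pair Ccr9 was -0.437 after saline. With sex as a covariate Cxcl14 was 0.0330 after saline and -0.00358 after ATG, and Ccr9 was 0.0176 after ATG. In the average Cxcl14 ran from -0.0854 to 0.0949, Cx3cr1 from -0.135 to 0.000428 and Ccr9 from -0.245 to 0.468. Averaged Ccr9 was -0.192 without the atrial-rich pair, -0.430 without the thymocyte-rich pair and -0.0435 without the heart- and muscle-rich libraries, and averaged Cxcl14 was 0.0882 without the atrial-rich pair, 0.169 without the heart- and muscle-rich libraries and 0.0147 with sex. For ATG against saline, Cxcl12 ran from -0.0535 to 0.135 in hyperoxia and -0.0476 to 0.187 in room air, Cxcl16 from -0.0873 to 0.198 in room air, and Cxcl15 in hyperoxia was 0.0607 without the thymocyte-rich pair.

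Of 18 same-number pairs of libraries, 2 correlated above 0.1 (range -0.156 to 0.280), the highest being the atrial-rich pair. Pairs of different number ran from -0.272 to 0.222, and 15 of 36 checks found a library closest to its own number. These values do not show whether replicate numbers pair the libraries. With the replicate number as a block, 2 members were called after saline, 6 after ATG and 10 in the average. Over all 15761 genes that run called 1356, 1763 and 3440. Cxcl5 after ATG was 2.53 with the block and no longer called. At 3 libraries a group, genes under about 1 CPM, such as Xcr1 and Ccl7, rest on few counts. The called rises of Cxcl5 and Ccl2 after ATG also start from few counts. In ATG room air Cxcl5 had 9, 24 and 8 counts and Ccl2 had 19, 16 and 7.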
